A study of Mus musculus with 8 samples.

Results

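The mitochondrial ribosomal proteins of the newborn mouse oocyte were described through their RNA. The members are all genes of the deposited table whose mouse symbol begins with Mrps or Mrpl followed by a digit, 78 of 21959 genes. By symbol 29 are named for the small subunit (Mrps) and 49 for the large subunit (Mrpl). The mitochondrial ribosome is built in the mitochondrial matrix from ribosomal RNAs encoded by the mitochondrial genome and from proteins that are all encoded in the nucleus, made in the cytosol and imported. The small subunit binds the messenger RNA and decodes it, and the large subunit forms the peptide bond and holds the exit tunnel. The only products of this ribosome are the handful of respiratory chain subunits that the mitochondrial genome encodes. Many of its proteins have a homologue in the bacterial ribosome, whereas others are found only in mitochondria. Oocytes pass nearly all of their mitochondria to the embryo and enlarge that pool as they grow.

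The study compared oocytes of Rbpms2 knockout mice with oocytes of wild-type mice, both from ovaries at postnatal day 1. Rbpms2 encodes an RNA-binding protein, and the series title places it in early oocyte development. There were 4 knockout and 4 wild-type libraries, each from a tube of 5 to 10 putative primordial oocytes that were picked with a mouth pipette after enzymatic dissociation of the ovary and amplified for 18 cycles. The labels name no strain, sex or allele design, and they leave unsaid whether different animals supplied the tubes. The p-values therefore describe how far tubes differ from each other, a spread that may be technical. Values are FPKM, fragments counted per length of exon and per total of counted fragments, which allow levels to be set side by side between genes of different length.

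Read numbers, which follow from the spacing of the FPKM values, were 9554049 to 14526290 in knockout libraries and 8310402 to 11926442 in wild-type libraries. Of the 77 members tested, each of which had 1 FPKM or more in all 8 libraries, 75 had 100 or more reads in every library. Rbpms2 itself had 42.5 ± 11.5 FPKM in knockout and 168.5 ± 32.3 FPKM in wild-type libraries (SD, n = 4 each), 3.96-fold lower in knockout (limma adjusted p = 7.26e-05). Of 10 oocyte markers, all but Zp3 were above 0 in all 8 libraries, and Ddx4, Dazl and Sycp3 were the 3 called higher in knockout. The other 7 were lower, and Gdf9 had 0.05 to 0.97 FPKM in knockout and 142 to 383 FPKM in wild-type libraries. The summed level of the 10 markers was 1807 to 2932 FPKM in knockout and 3026 to 4782 FPKM in wild-type libraries. Zp3, a protein of the egg coat, was listed at 0 in knockout replicates 1 and 2. Markers of other cells also varied. The sum of 9 granulosa markers was 9.53 to 345 FPKM in knockout and 1.61 to 47.4 FPKM in wild-type libraries, that of 8 stroma markers 8.02 to 325 and 3.45 to 76.2 FPKM, that of 9 immune markers 16.9 to 420.2 and 7.05 to 20.1 FPKM, that of 7 endothelial markers 3.08 to 297 and 1.55 to 2.66 FPKM, that of 6 erythroid markers 99.6 to 3212 and 11.9 to 5354 FPKM, and that of 5 mesothelial markers 0.64 to 34.3 and 4.85 to 9.27 FPKM. The number of those markers listed at 0 was 0 to 1 of 9 granulosa and 0 to 1 of 9 immune markers in knockout libraries, against 0 to 5 and 3 to 7 in wild-type libraries. C1qa and C1qc, which mark macrophages, were listed at 0 in all 4 wild-type libraries, and no stroma marker was at 0 in any library. C1qb, of the same immune list, was not at 0 in any library. It had 0.31, 6.95, 82.0 and 1.06 FPKM in knockout libraries and 6.93, 11.1, 3.48 and 4.86 FPKM in wild-type libraries. Knockout replicates 2 and 3 and wild-type replicate 3 were the richest in granulosa and stroma markers, and the counts over all members, each subunit, the other lists together and the cytosolic list are also given without these 3 somatic-rich libraries. The libraries that remain are not free of markers of other cells. Knockout replicate 1 held the 297 FPKM of endothelial markers, and wild-type replicate 1 had 4211 FPKM of erythroid markers. The part of these markers in the results was not tested. In bulk libraries of this kind, fewer cells of a type and less RNA per cell cannot be told apart.

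The mitochondrial ribosomal protein genes did not move as a block: as deposited, in both subunits some members rose in knockout oocytes and more fell. Of the 77 tested members, 12 rose and 22 fell, which is 44.2% called (limma, adjusted p under 0.05 over 11235 genes). Over all tested genes 43.4% were called, 17.7% higher and 25.6% lower, so the members' share was close to that background. The largest rises were those of Mrpl50, Mrpl3 and Mrpl27 and the largest falls those of Mrps24, Mrps36 and Mrpl14. The median size of a change, whatever its direction, was 0.53 on the log2(FPKM + 1) scale among members and 0.73 among all tested genes, and 3 members rose and 8 fell by 2-fold or more on that scale, 11 of 77 against 33.2% of all tested genes. The level of a typical member was also steadier between tubes, with a median coefficient of variation of 16.9% in knockout and 17.9% in wild-type libraries, against 35.8% and 28.4% over all tested genes. Members also lay at higher levels, with a median of 34.5 FPKM in knockout and 37.2 FPKM in wild-type libraries, against 7.44 and 8.41 FPKM over all tested genes. The part of level in these differences was not tested. Ribosomal protein genes of the cytosol had a median coefficient of variation of 19.0% and 12.4% and a median change of 0.47, whatever its direction. For 40 members all libraries of one genotype lay above all of the other, 15 of them higher and 25 lower in knockout, 51.9% of the members tested against 39.9% of all tested genes. The median log2 fold change was -0.11 over the members and -0.12 over all tested genes. Median-of-ratios scaling, which moved the median of all genes to 0.00, gave 14 higher and 16 lower members. Among the Mrpl genes, Mrpl21, Mrpl22, Mrpl28 and Mrpl54 then lost their calls as lower, and Mrpl13 and Mrpl33 were called higher. More Mrpl genes thus rose than fell under that scaling. With the replicate block and the GC correction together as many Mrpl genes rose as fell. Without the 3 libraries rich in somatic markers, 8 members were called higher and 23 lower. Of the 9189 genes tested in that fit, 1635 were called higher and 2265 lower. Leaving out wild-type replicate 4 alone gave 7 members higher and 17 lower.

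**Figure D1:**
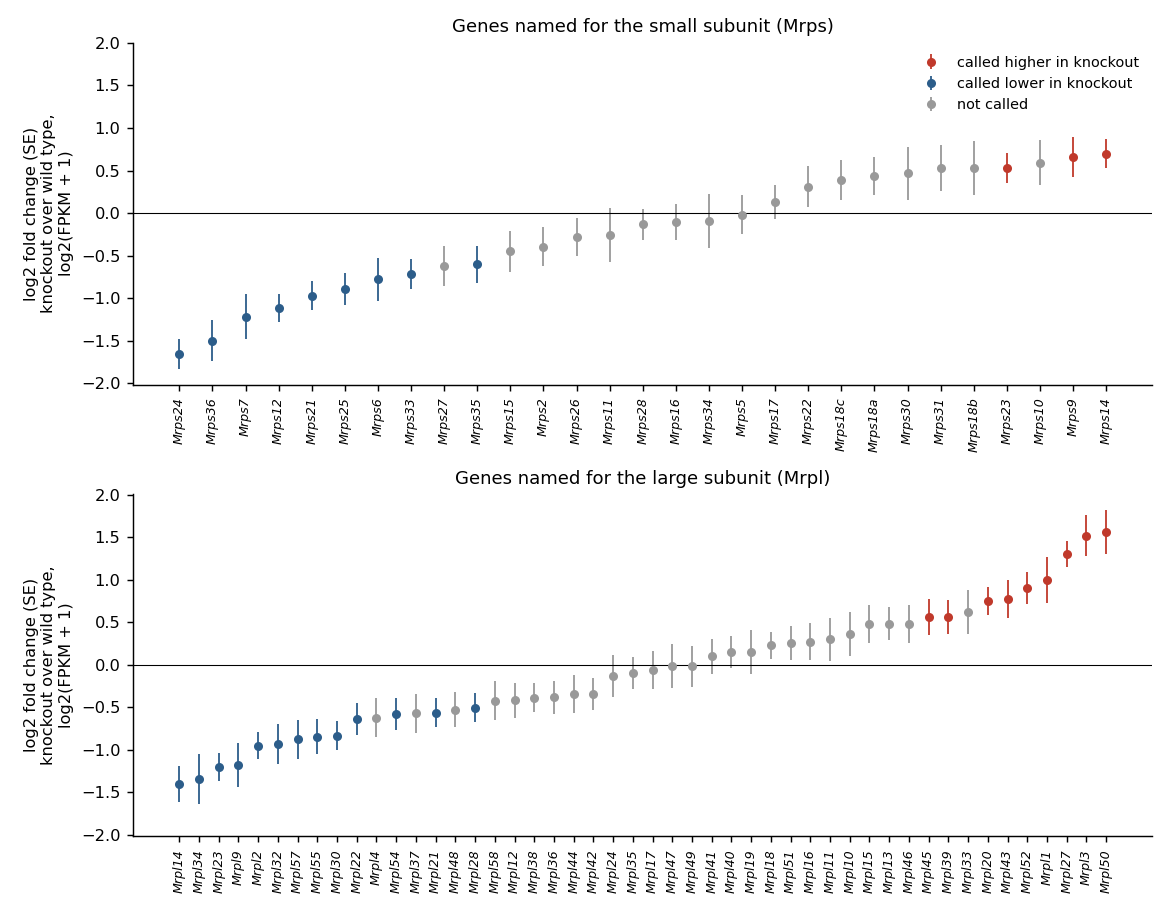
Log2 fold change (knockout over wild type, log2(FPKM + 1) scale) of each tested member, ordered by size, with its standard error; the upper panel holds the 29 Mrps genes and the lower panel the 48 tested Mrpl genes. Red members were called higher and blue ones lower in knockout, from -1.65 for Mrps24 to 1.56 for Mrpl50, and grey members between them were not called.

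Of the genes named for the small subunit, 3 rose and 9 fell in knockout oocytes among 29 tested, and 2 and 10 without the 3 somatic-rich libraries. With all libraries these are 10.3% and 31.0%, against 17.7% and 25.6% of all tested genes. The strongest fall was that of Mrps24 (ENSMUSG00000020477, chromosome 11, 5703983 to 5715680, GRCm38), the homologue of bacterial S3, which in bacteria lies where the messenger RNA enters. Mrps24 had 46.5, 49.3, 46.4 and 36.9 FPKM in the knockout libraries and 115, 143, 150 and 166 FPKM in the wild-type libraries. The groups were far apart, and the knockout mean was 3.2-fold lower (log2 fold change -1.65, SE 0.18, limma adjusted p = 5.9e-05). The Mrps24 gene shares 15.4% of its exon length with Urgcp on the same strand, which had 3.10 ± 0.69 FPKM in knockout and 4.86 ± 0.72 FPKM in wild-type libraries (SD, n = 4 each).

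Mrps7 and Mrps12 encode the homologues of S7, which in bacteria starts the assembly of the head of the small subunit, and of S12, which in bacteria takes part in decoding. Mrps7 had 67.0, 52.1, 38.4 and 48.0 FPKM in knockout libraries, against 125, 138, 71.5 and 159 FPKM in wild-type libraries. Wild-type replicate 3 was the lowest of its group and came close to the highest knockout library without meeting it (log2 fold change -1.22, SE 0.27, limma adjusted p = 0.00385). Mrps12 had 41.1, 37.2, 41.2 and 33.6 FPKM in knockout libraries and 77.1, 77.8, 88.1 and 93.0 FPKM in wild-type libraries, a fold change of -1.11 on the log2 scale (SE 0.16, limma adjusted p = 0.000389). Mrps21, the homologue of bacterial S21 and the small-subunit gene with the highest mean level over the 8 libraries, had 80.6, 100.03, 98.6 and 93.9 FPKM in knockout libraries and 175, 160.4, 225 and 179 FPKM in wild-type libraries. Its groups were far apart and its knockout mean was 1.98-fold lower (log2 fold change -0.97, SE 0.17, limma adjusted p = 0.001). The other small-subunit genes that fell, with log2 fold changes of -0.60 to -0.89, were Mrps25, Mrps6, Mrps33 and Mrps35. When single libraries were left out, Mrps35 stayed called only without wild-type replicate 4, and Mrps6 lost its call without any 1 wild-type library or without knockout replicate 4.

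The 3 small-subunit genes that rose did so by less. Mrps14, the homologue of bacterial S14 in the head of the subunit, had 80.2, 64.1, 75.0 and 90.1 FPKM in knockout libraries, against 50.0, 49.3, 41.4 and 47.7 FPKM in wild-type libraries. The groups did not overlap and the log2 fold change was 0.70 (SE 0.17, limma adjusted p = 0.00757), but it was 0.00 after a correction for GC content. Mrps9, the homologue of bacterial S9, had 24.6, 23.0, 19.1 and 26.9 FPKM in knockout libraries and 16.3, 17.1, 9.31 and 16.0 FPKM in wild-type libraries (log2 fold change 0.66, SE 0.24, limma adjusted p = 0.0417). Wild-type replicate 3 was low for this gene, and the GC correction turned its log2 fold change to -0.09. With no filter on low genes its call was lost (limma adjusted p = 0.0515). Mrps23, a mitochondria-specific protein, had 66.9, 87.8, 69.8 and 81.4 FPKM in knockout libraries and 53.6, 61.9, 47.2 and 47.4 FPKM in wild-type libraries (log2 fold change 0.53, SE 0.18, limma adjusted p = 0.0304). Mrps23 lost its call when wild-type library 1, 3 or 4 or knockout library 2 or 4 was dropped (limma adjusted p = 0.0571 to 0.0909). Mrps9 lost it without any library other than knockout replicate 3 (limma adjusted p = 0.0557 to 0.0989). Without the 3 somatic-rich libraries neither was called (limma adjusted p = 0.121 for Mrps23 and 0.0511 for Mrps9). Across the fits that left out 1 library the number of small-subunit genes called higher was 1 to 5, with 5 when knockout replicate 3 was left out and 1 when knockout replicate 2 or 4 or wild-type replicate 1, 3 or 4 was.

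Of the genes named for the large subunit, 9 rose and 13 fell among 48 tested, and 6 and 13 without the 3 somatic-rich libraries. With all libraries these are 18.8% and 27.1%, against 17.7% and 25.6% of all tested genes. The largest rises were larger than among the Mrps genes. Mrpl50 (ENSMUSG00000044018, chromosome 4, 49512596 to 49521093, GRCm38), a mitochondria-specific protein of the large subunit whose human gene has been linked to ovarian insufficiency, had 33.2, 18.3, 36.1 and 24.0 FPKM in knockout libraries and 9.55, 10.3, 7.62 and 6.82 FPKM in wild-type libraries. Every knockout library was above every wild-type library, and the knockout mean was 3.25-fold that of wild type (log2 fold change 1.56, SE 0.26, limma adjusted p = 0.000745). Mrpl3 (ENSMUSG00000032563, chromosome 9, 105053239 to 105079888), the homologue of bacterial L3, which reaches towards the peptidyl transferase centre, had 17.0, 18.2, 17.0 and 21.7 FPKM in knockout libraries, against 8.81, 4.94, 5.41 and 4.60 FPKM in wild-type libraries. It was among the 3 tested Mrpl genes with the lowest mean level and its knockout mean was 3.11-fold that of wild type (log2 fold change 1.52, SE 0.24, limma adjusted p = 0.00062).

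Mrpl27 (ENSMUSG00000024414, chromosome 11, 94653767 to 94660089), the homologue of bacterial L27, whose tail lies at the peptidyl transferase centre, had 100.001, 95.8, 86.4 and 90.6 FPKM in knockout libraries and 37.9, 39.95, 36.7 and 34.2 FPKM in wild-type libraries. Both groups were tight and far apart (log2 fold change 1.30, SE 0.16, limma adjusted p = 0.000105). Mrpl1, the homologue of the L1 protein of the mobile stalk, had 32.6, 36.2, 30.7 and 38.4 FPKM in knockout libraries and 24.3, 20.51, 9.60 and 16.2 FPKM in wild-type libraries. Its groups did not overlap (log2 fold change 0.995, SE 0.27, limma adjusted p = 0.0117), but the GC correction left 0.43 and no call. Mrpl52, mitochondria-specific and among the 3 most abundant Mrpl genes, had 165, 181, 203 and 193 FPKM in knockout libraries and 79.1, 119.8, 120.1 and 82.7 FPKM in wild-type libraries (log2 fold change 0.90, SE 0.19, limma adjusted p = 0.00323). Mrpl43, Mrpl20, Mrpl39 and Mrpl45 were the other members called higher, with log2 fold changes of 0.56 to 0.78. Their calls were less stable when single libraries were left out. Mrpl45 stayed called only without knockout replicate 2, Mrpl39 lost its call when wild-type library 2, 3 or 4 or knockout library 1 or 4 was dropped, Mrpl43 lost it without wild-type replicate 4, and Mrpl20 kept it throughout.

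The falls in the large subunit were led by Mrpl14 (ENSMUSG00000023939, chromosome 17, 45686322 to 45698495), the homologue of bacterial L14 on the face that meets the small subunit. Mrpl14 had 55.8, 56.0, 43.0 and 35.8 FPKM in knockout libraries and 97.2, 118, 136 and 157 FPKM in wild-type libraries, a knockout mean 2.67-fold lower with no overlap (log2 fold change -1.40, SE 0.21, limma adjusted p = 0.000481). It shares 11.2% of its exon length with Tmem63b on the opposite strand, a gene that itself had 3.99 ± 0.96 FPKM in knockout and 8.19 ± 1.44 FPKM in wild-type libraries (SD, n = 4 each). Mrpl34, whose bacterial homologue is among the smallest ribosomal proteins, had 19.3, 31.8, 56.6 and 26.0 FPKM in knockout libraries and 82.1, 63.5, 95.1 and 81.2 FPKM in wild-type libraries. Knockout replicate 3 stood above the others of its group, yet below the lowest wild-type library (log2 fold change -1.34, SE 0.29, limma adjusted p = 0.00404). The GC correction left -0.73 and no call (limma adjusted p = 0.0546).

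Mrpl23, the homologue of bacterial L23 at the rim of the exit tunnel, had 17.5, 18.5, 17.9 and 19.5 FPKM in knockout libraries and 42.8, 47.4, 41.0 and 43.0 FPKM in wild-type libraries and both groups were tight (log2 fold change -1.20, SE 0.17, limma adjusted p = 0.000259). Mrpl9 had 16.3, 21.04, 10.6 and 24.3 FPKM in knockout libraries and 50.0, 35.4, 40.9 and 37.0 FPKM in wild-type libraries (log2 fold change -1.18, SE 0.26, limma adjusted p = 0.00393). Mrpl2, the homologue of the conserved L2 protein next to the peptidyl transferase centre, had 77.5, 83.8, 76.6 and 69.5 FPKM in knockout libraries and 165, 154, 138 and 140.0 FPKM in wild-type libraries (log2 fold change -0.95, SE 0.15, limma adjusted p = 0.000678), and the GC correction left -0.39 and no call. None of these groups overlapped. Mrpl55 and Mrpl54 were the most abundant large-subunit genes in wild type. Mrpl55 had 165, 133, 88.8 and 125 FPKM in knockout libraries and 194, 218, 233 and 259.6 FPKM in wild-type libraries (log2 fold change -0.84, SE 0.20, limma adjusted p = 0.00686). Mrpl54 had 142, 204, 121 and 126 FPKM in knockout libraries and 206, 225, 214 and 224 FPKM in wild-type libraries, with knockout replicate 2 just short of the lowest wild-type library (log2 fold change -0.58, SE 0.19, limma adjusted p = 0.0287). The Mrpl54 call was lost when wild-type library 2, 3 or 4 or knockout library 1, 3 or 4 was dropped (limma adjusted p = 0.0504 to 0.075), and its log2 fold change was 0.12 after the GC correction and -0.43, without a call, under median-of-ratios scaling. The other 6 that fell, by -0.51 to -0.93 on the log2 scale, were Mrpl32, Mrpl57, Mrpl30, Mrpl22, Mrpl21 and Mrpl28. Of these, Mrpl28 stayed called only without knockout replicate 2, Mrpl21 lost its call when wild-type library 1, 2 or 4 or knockout library 1 was dropped, and Mrpl22 without wild-type replicate 1 or 4.

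**Figure D2:**
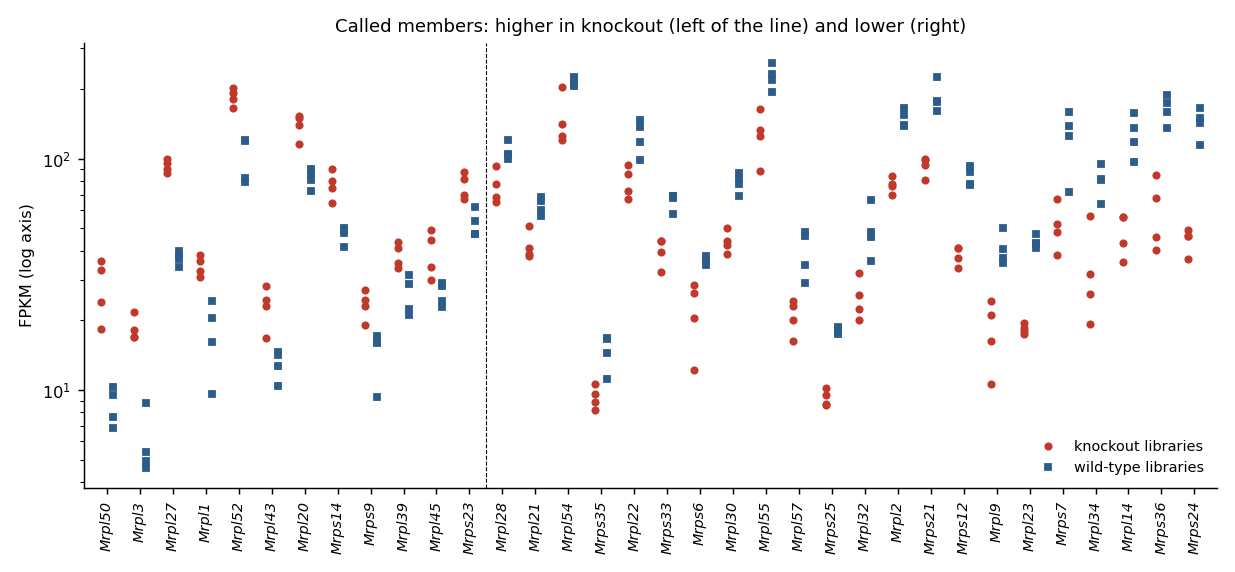
FPKM (log axis) of the 34 called members in each of the 4 knockout libraries (red circles, left of each pair) and the 4 wild-type libraries (blue squares, right), with the 12 members called higher left of the dashed line and the 22 called lower right of it, both ordered by log2 fold change. In none of the 34 did the 2 groups of libraries overlap.

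Symbols do not always give the place of a protein. Mrps18a and Mrps30 encode proteins of the large subunit, and Mrps36 encodes a small subunit of the mitochondrial ketoglutarate dehydrogenase that was once taken for a ribosomal protein, so 26 members lie in the small and 51 in the large subunit by structure. Mrps36 (ENSMUSG00000061474, chromosome 13, 100735955 to 100744659) had 46.0, 84.7, 67.6 and 40.1 FPKM in knockout libraries and 174, 189, 135 and 159 FPKM in wild-type libraries, a knockout mean 2.76-fold lower with no overlap (log2 fold change -1.50, SE 0.24, limma adjusted p = 0.000684). Reads from its 3 annotated pseudogenes, which the table does not list, could have been counted with it. By structure 3 of 26 small-subunit genes rose and 8 fell (11.5% and 30.8%), and 9 of 50 tested large-subunit genes rose and 13 fell (18% and 26%).

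Mrps18a, Mrps18b and Mrps18c are a family of related genes named for bacterial S18, of which the classes used below count only Mrps18c as a bacterial homologue. None of the 3 was called. Mrps18a had 43.8, 55.1, 30.8 and 43.1 FPKM in knockout libraries and 30.7, 40.04, 26.9 and 28.2 FPKM in wild-type libraries, with a log2 fold change of 0.43 (95% confidence interval -0.05 to 0.92). Mrps18b had 10.2, 13.0, 8.32 and 9.86 FPKM in knockout libraries and 9.54, 10.7, 3.63 and 5.35 FPKM in wild-type libraries (0.53, interval -0.18 to 1.24). Mrps18c had 41.6, 47.7, 64.8 and 46.9 FPKM in knockout libraries and 47.1, 48.5, 27.1 and 32.7 FPKM in wild-type libraries (0.38, interval -0.14 to 0.90). The groups overlapped for each of the 3, and the intervals allow changes of about 2-fold. Mrps18a was called higher after the GC correction (log2 fold change 0.85, limma adjusted p = 0.0124) and without knockout replicate 3 (0.58, limma adjusted p = 0.0439). With the replicate block and the GC correction together both Mrps18a (0.85, limma adjusted p = 0.00876) and Mrps18b (0.79, limma adjusted p = 0.0453) were called higher.

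At the low end, Mrps34 had 2.65, 1.30, 3.498 and 2.28 FPKM in knockout libraries and 2.84, 3.95, 1.89 and 1.92 FPKM in wild-type libraries (log2 fold change -0.09, interval -0.79 to 0.60). Its exons overlap those of Mapk8ip3 over 63.4% and those of Nme3 over 37.0% of their length, and Nme3 was listed at 0 in all 8 libraries. Mrps30 had 6.29, 5.90, 7.12 and 6.62 FPKM in knockout libraries and 8.08, 5.16, 2.90 and 2.88 FPKM in wild-type libraries (log2 fold change 0.47, interval -0.22 to 1.15), even in knockout and scattered in wild type. Mrpl33 was not called either, although its groups did not overlap: 4.58, 4.82, 7.03 and 5.97 FPKM in knockout libraries and 3.14, 4.27, 2.93 and 2.79 FPKM in wild-type libraries (log2 fold change 0.62, limma adjusted p = 0.0706). It was called under median-of-ratios and quantile scaling (limma adjusted p = 0.035 and 0.0174). Mrpl19 had 4.86, 7.67, 8.21 and 7.35 FPKM in knockout libraries and 7.34, 5.17, 4.80 and 7.50 FPKM in wild-type libraries (log2 fold change 0.16, interval -0.42 to 0.73). Mrpl53 was the single member that did not pass the filter of 1 FPKM in at least 4 libraries. It was listed at 0 in all 8, and 88.0% of its exon length is shared with the same-strand gene Gm42688, which had 0.00 to 0.16 FPKM in knockout and 0.00 to 0.05 FPKM in wild-type libraries.

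As deposited, the summed FPKM of either subunit was lower in knockout oocytes with no overlap between the genotypes, which median-of-ratios scaling did not retain. Relative to wild type the difference was larger for the Mrps genes. The 29 Mrps genes summed to 1038 ± 63.6 FPKM in knockout and 1442 ± 92.7 FPKM in wild-type libraries (SD, n = 4 each), with ranges of 978 to 1127 and 1307 to 1506 FPKM. The 49 Mrpl genes summed to 2313 ± 113 FPKM in knockout and 2670 ± 104 FPKM in wild-type libraries (SD, n = 4 each), with ranges of 2183 to 2438 and 2514 to 2733 FPKM. The members together made up 1.03% of all FPKM in knockout (0.980% to 1.079%) and 1.25% in wild-type libraries (1.19% to 1.29%). Under median-of-ratios scaling the Mrps sums were 977 to 1205 in knockout and 1166 to 1472 in wild-type libraries, and the Mrpl sums 2110 to 2619 and 2244 to 2662, so the ranges then overlapped for both subunits.

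The ratio of the Mrps sum to the Mrpl sum does not depend on the scaling of a library. It was 0.449 ± 0.016 in knockout and 0.540 ± 0.016 in wild-type libraries (SD, n = 4 each), with ranges of 0.433 to 0.463 and 0.520 to 0.555. Lower and higher genes both enter this difference of -0.091. In the Mrps sum the 18 genes with a lower mean in knockout added up to -518.1 FPKM and the 11 with a higher mean to 114.7 FPKM, a net -403.4 FPKM. The 4 largest decreases, Mrps36, Mrps24, Mrps21 and Mrps7, picked here for their size, came to -367.2 FPKM, and these genes held 42.7% of the wild-type sum. The remaining 25 Mrps genes summed to 789 ± 38.4 FPKM in knockout and 826 ± 67.9 FPKM in wild-type libraries (SD, n = 4 each), with overlapping ranges. In the Mrpl sum the 26 genes with a lower mean added up to -716.3 FPKM and the 22 with a higher mean to 359.9 FPKM, a net -356.4 FPKM. Mrpl55, Mrpl14, Mrpl2 and Mrpl54, again the 4 largest decreases, came to -319.5 FPKM, while Mrpl52, Mrpl20 and Mrpl27 were higher in knockout by 85.1, 57.2 and 56.0 FPKM. The remaining 45 genes summed to 1913 ± 45.5 FPKM in knockout and 1950 ± 117 FPKM in wild-type libraries (SD, n = 4 each). By structure, with Mrps36 left out and Mrps18a and Mrps30 moved, the ratio was 0.393 in knockout and 0.459 in wild-type libraries. With the median gene of each subunit in place of the sum it was 0.861 and 0.812, overlapping and in the opposite direction. The median log2 fold change was -0.13 for Mrps and -0.08 for Mrpl genes, and 0.01 and 0.07 under median-of-ratios scaling.

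**Figure D3:**
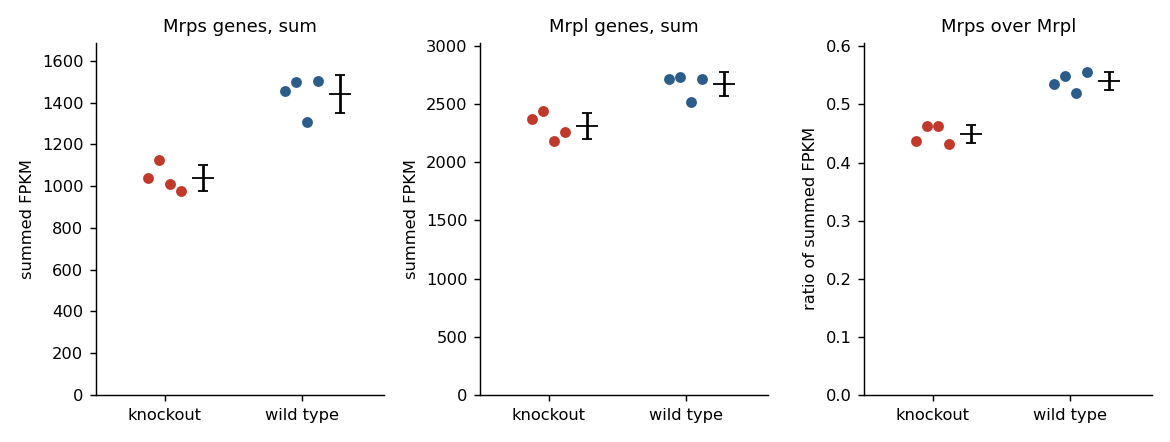
Summed FPKM of the 29 Mrps genes, of the 49 Mrpl genes and their ratio, one point per library (knockout red, wild type blue), with the mean and SD of each group of 4 in black and axes that start at 0. The Mrps sums of 978 to 1127 in knockout lie below the 1307 to 1506 of wild type, and the ratio is 0.433 to 0.463 against 0.520 to 0.555.

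By origin, 6 rose and 16 fell of 46 members with a bacterial homologue (13.0% and 34.8%), and 6 rose and 5 fell of 30 tested mitochondria-specific members (20% and 16.7%). Of all tested genes 17.7% rose and 25.6% fell. The difference between these classes was not tested, so the counts are a description. In the large subunit 4 rose and 11 fell among 30 bacterial homologues and 5 rose and 2 fell among 20 mitochondria-specific members. In the small subunit 2 rose and 5 fell among 16 and 1 rose and 3 fell among 10.

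The change of a member went with the GC content of its transcript, as it did in the whole table. Across the 77 tested members the log2 fold change and GC content had a Pearson r of -0.384 and a Spearman rho of -0.370, and across 11220 tested genes -0.324 and -0.372. Genes of the same 8 libraries are not independent replicates, and these values are descriptions. The median GC content was 48.5% for the 12 members that rose and 52.7% for the 22 that fell, with median exon lengths of 2324 and 1500 bases. A correction of each library for GC content left 11 members higher and 18 lower, of which 8 and 16 were also called without it. Mrpl50, Mrpl3, Mrpl27, Mrpl52 and Mrpl20 remained higher, and 13 members remained lower, under every one of the 20 alternatives. Those 13 included Mrps24, Mrps36, Mrps7, Mrps12, Mrps21, Mrpl14, Mrpl23 and Mrpl9. The part of GC content in the changes was not tested beyond this correction.

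**Figure D4:**
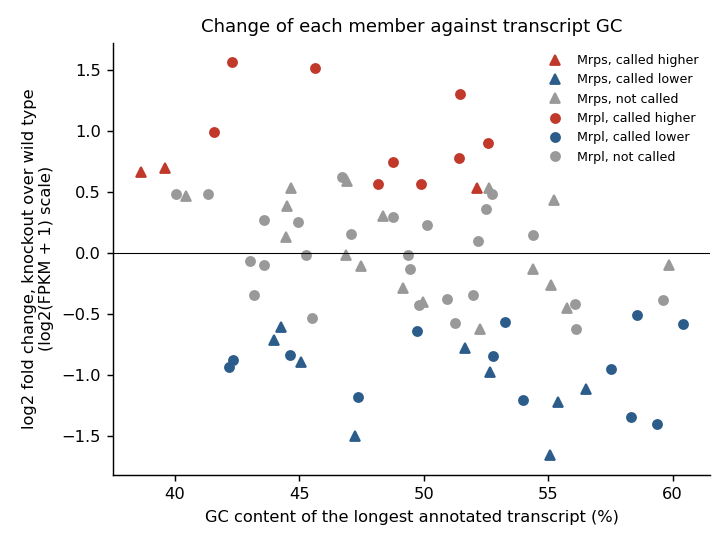
Log2 fold change (knockout over wild type, log2(FPKM + 1) scale) of the 77 tested members against the GC content of their longest annotated transcript in percent, with triangles for Mrps and circles for Mrpl genes. Members called higher (red) have a median GC content of 48.5% and members called lower (blue) one of 52.7%.

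Some members share exon sequence with a neighbour. Of 17 members that share more than 10% of their exon length with another annotated gene, 16 were tested, of which 1 rose and 4 fell (31.25% called). Of the other 61 members 11 rose and 18 fell (47.5% called), and 43.4% of all tested genes were called. The sharing members with a call were Mrpl43, which overlaps Twnk over 33.4% of its exon length, and Mrps24, Mrpl14, Mrps6 and Mrps25, the last overlapping Nr2c2 over 69.8%. How reads in shared exons were assigned is not given in the sources used here, so the values of these 5 are uncertain.

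Promoters of mitochondrial ribosomal protein genes are known for sites of ETS-family factors, NRF1 and YY1, regulators shared by many housekeeping genes. RefSeq promoters (GRCm38.p6) were at hand for 69 of the 78 members, and windows from 250 bases before to 30 bases after the start were searched on both strands for CCGGAAG (ETS), GCGCA and GCGC set apart by a single base (NRF1) and AANATGGCG (YY1). Among the members 34.8%, 18.8% and 10.1% held these letters, against 20.9%, 12.04% and 4.92% of 8967 tested genes and 9.48%, 4.98% and 2.13% of all 27025 promoters. The letters were found among members in each class of change: ETS in 5 of 12 that rose, 6 of 20 that fell and 12 of 36 not called, NRF1 in 3, 6 and 4, and YY1 in 1, 0 and 6. The windows below are those of the called Mrps and Mrpl genes with the largest rise and the largest fall among the ones that hold a motif. The rise of Mrps9 stayed called under 9 of 20 alternatives, and its log2 fold change was -0.09 after the GC correction. Capitals mark the motif, NRF1 in Mrps9 (chr1:42850983-42851262, plus strand) and Mrpl14 (chr17:45686099-45686378, plus strand), and ETS in Mrpl3 (chr9:105053018-105053297, plus strand) and Mrps12 (chr7:28741792-28742071, minus strand). A match is a description of letters, not of binding, and Mrps14, Mrps24 and Mrpl50 held none of the 3 motifs in this window.
Mrps9: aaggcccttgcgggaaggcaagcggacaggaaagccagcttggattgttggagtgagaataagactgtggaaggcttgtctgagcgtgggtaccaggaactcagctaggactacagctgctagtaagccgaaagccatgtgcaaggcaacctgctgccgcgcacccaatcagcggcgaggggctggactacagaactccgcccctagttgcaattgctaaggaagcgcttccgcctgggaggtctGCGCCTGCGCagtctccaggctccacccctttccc
Mrps12: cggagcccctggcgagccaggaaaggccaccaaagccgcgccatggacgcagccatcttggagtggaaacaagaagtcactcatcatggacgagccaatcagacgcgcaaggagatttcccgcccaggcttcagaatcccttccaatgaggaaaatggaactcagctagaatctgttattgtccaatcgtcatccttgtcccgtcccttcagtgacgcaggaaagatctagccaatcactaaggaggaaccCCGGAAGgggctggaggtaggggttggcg
Mrpl3: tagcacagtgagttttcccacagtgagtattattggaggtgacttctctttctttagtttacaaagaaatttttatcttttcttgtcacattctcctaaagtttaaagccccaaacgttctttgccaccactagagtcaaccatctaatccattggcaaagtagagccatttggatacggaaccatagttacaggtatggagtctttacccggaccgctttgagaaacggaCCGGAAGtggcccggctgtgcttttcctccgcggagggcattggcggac
Mrpl14: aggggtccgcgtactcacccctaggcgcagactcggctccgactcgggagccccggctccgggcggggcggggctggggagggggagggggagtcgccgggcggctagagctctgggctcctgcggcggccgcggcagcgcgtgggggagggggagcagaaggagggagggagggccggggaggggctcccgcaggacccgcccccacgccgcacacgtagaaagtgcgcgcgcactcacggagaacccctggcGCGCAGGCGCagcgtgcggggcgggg

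Of 4 tested mitochondrial ribosomal proteins with other names, Ptcd3 and Chchd1 rose and none fell, 50% and 0% against 17.7% and 25.6% of all tested genes. Ptcd3, a small-subunit protein that binds RNA, had 33.0, 11.3, 16.6 and 22.6 FPKM in knockout libraries and 11.3, 5.18, 7.34 and 6.39 FPKM in wild-type libraries (log2 fold change 1.30, SE 0.34, limma adjusted p = 0.00951). Its groups met at knockout replicate 2 and wild-type replicate 1. Chchd1, with a log2 fold change of 0.48 (limma adjusted p = 0.0404), lost its call when wild-type library 2, 3 or 4 or knockout library 1, 3 or 4 was dropped (limma adjusted p = 0.0767 to 0.12) and without the 3 somatic-rich libraries (0.0929). Of 25 assembly and rRNA modification factors 4 rose and 1 fell, 16.0% and 4.0% against 17.7% and 25.6% of all tested genes, and 20 were not called. The number that fell was 3 without wild-type replicate 3 or without the 3 somatic-rich libraries and with the replicate block and GC correction together, and 2 with either of those alone, with a filter at 5 FPKM, or without knockout replicate 3 or 4. Noa1, a GTPase of small-subunit assembly, had 16.1, 15.8, 11.4 and 14.2 FPKM in knockout libraries and 7.42, 4.57, 4.35 and 2.03 FPKM in wild-type libraries, with no overlap (log2 fold change 1.54, SE 0.31, limma adjusted p = 0.00258). Nsun4, which methylates the small-subunit rRNA and binds the large subunit, and Gtpbp10, a GTPase of large-subunit assembly, rose with log2 fold changes of 1.44 and 1.49 (limma adjusted p = 0.00297 and 0.00446). After the GC correction Ptcd3, Chchd1 and Gtpbp10 were no longer called (limma adjusted p = 0.0759, 0.0598 and 0.0636).

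Among 14 tested translation factors Mtif2, which starts translation, and Guf1, a GTPase that acts on stalled ribosomes, rose, and Tufm, the elongation factor that delivers aminoacyl-tRNA, fell. Their log2 fold changes were 1.19, 0.89 and -0.77 (limma adjusted p = 0.0123, 0.03 and 0.0215). The shares of translation factors that rose and fell were 14.3% and 7.1%, against 17.7% and 25.6% of all tested genes. Guf1 was no longer called when wild-type library 2, 3 or 4 or knockout library 3 or 4 was dropped (limma adjusted p = 0.0513 to 0.0956), and Tufm when wild-type library 3 or 4 or knockout library 4 was dropped (limma adjusted p = 0.0524 to 0.0592). Of 17 aminoacyl-tRNA synthetases 2 rose and 4 fell, 11.8% and 23.5% against 17.7% and 25.6% of all tested genes. Lars2, which charges the leucine tRNA and whose human gene underlies a form of ovarian failure, had 53.3, 65.6, 166 and 58.4 FPKM in knockout libraries and 220.0, 370.4, 1737 and 724 FPKM in wild-type libraries. The wild-type values spread widely, yet all lay above the knockout values (log2 fold change -2.87, SE 0.57, limma adjusted p = 0.00225). Its wild-type mean of 763 FPKM was the highest of the 17 synthetases, whose median wild-type mean was 5.77 FPKM. Whether reads of other origin were counted with Lars2 was not tested. Vars2, for valine, fell (log2 fold change -1.30, limma adjusted p = 0.00243) and Mars2, for methionine, rose (1.52, limma adjusted p = 0.0049). The calls of Mtif2, Guf1, Tufm and Mars2 were lost after the GC correction (limma adjusted p = 0.0586, 0.889, 0.299 and 0.102), and that of Tufm also under median-of-ratios scaling (limma adjusted p = 0.0551). Without the 3 somatic-rich libraries Guf1 and Tufm were not called (limma adjusted p = 0.111 and 0.122).

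Of 7 tested nuclear regulators of mitochondrial genes 2 fell and none rose, and 1 was called higher under median-of-ratios or quantile scaling. The share that fell was 28.6%, against 25.6% of all tested genes, of which 17.7% rose. Pprc1, a coactivator that works with NRF1, had 6.001, 3.34, 3.73 and 5.36 FPKM in knockout libraries and 17.0, 19.0, 17.4 and 18.9 FPKM in wild-type libraries, far apart (log2 fold change -1.79, SE 0.23, limma adjusted p = 0.000175). Esrra, a nuclear receptor that works with the same family of coactivators, fell as well (log2 fold change -1.18, limma adjusted p = 0.00876) at under 3 FPKM in every library and with the filter passed through the wild-type libraries alone. Of 11 tested genes of mitochondrial transcription and genome maintenance none rose and 2 fell, 18.2% against 25.6% of all tested genes. Polrmt, the mitochondrial RNA polymerase, had 8.41, 3.80, 2.33 and 6.47 FPKM in knockout libraries and 15.6, 12.2, 8.75 and 12.6 FPKM in wild-type libraries (log2 fold change -1.17, limma adjusted p = 0.0173, 0.0515 without wild-type replicate 1 and 0.365 after the GC correction). Mterf1b was listed at 0 in knockout replicates 1 to 3 and had 1.30 FPKM in knockout replicate 4, against 2.26, 3.97, 0.26 and 2.64 FPKM in wild-type libraries (limma adjusted p = 0.0487, 0.0867 to 0.105 without knockout replicate 1, 2 or 3, and 0.0638 under median-of-ratios scaling).

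Among the RNAs that this ribosome translates, those of the mitochondrially encoded proteins, 7 of 12 tested fell and none rose. The share that fell was 58.3%, against 25.6% of all tested genes, of which 17.7% rose. The 13 listed genes made up 2.62% of all FPKM in knockout (2.00% to 3.39%) and 4.59% in wild-type libraries (3.19% to 5.90%), ranges that overlapped. mt-Nd3, a subunit of respiratory complex I, had 17.2, 48.0, 31.4 and 16.8 FPKM in knockout libraries and 65.5, 82.7, 139 and 125 FPKM in wild-type libraries (log2 fold change -1.89, SE 0.36, limma adjusted p = 0.00167). mt-Nd2 and mt-Nd5 fell with log2 fold changes of -1.38 and -0.69 (limma adjusted p = 0.00733 and 0.0105), the call of mt-Nd5 being lost with no filter (limma adjusted p = 0.0717). The number that fell was 4 when wild-type library 3 or 4 or knockout library 1 or 4 was dropped, 2 with no filter, and 11 after the GC correction. The mitochondrial rRNAs were not analysed here. Over the 6 lists and this group together 10 of 90 tested genes rose and 17 fell, 11.1% and 18.9% against 17.7% and 25.6% of all tested genes, with 10 falls when wild-type replicate 4 was left out and 11 rises and 19 falls of 85 tested without the 3 somatic-rich libraries.

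For comparison, the ribosome of the cytosol had more rises than falls as deposited. Of 84 genes of cytosolic ribosomal proteins 23 rose and 12 fell, 27.4% and 14.3% against 17.7% and 25.6% of all tested genes. Their median log2 fold change was 0.18, and they summed to 38867 ± 4289 FPKM in knockout and 35640 ± 1709 FPKM in wild-type libraries (SD, n = 4 each), with overlapping ranges. Under median-of-ratios scaling 33 rose and 9 fell. Without the 3 libraries rich in somatic markers 15 rose and 15 fell of 82 tested, against 1635 and 2265 of all 9189 genes tested then. The number of cytosolic genes that fell was 3 after the GC correction, 7 with no filter, 6 without knockout replicate 1 and 7 without knockout replicate 4 or wild-type replicate 4. Rps28 had 679, 641, 804 and 902 FPKM in knockout libraries and 209, 247, 327 and 182 FPKM in wild-type libraries (log2 fold change 1.67, SE 0.21, limma adjusted p = 0.000133). Rpl7l1 and Rpl39l, paralogs of ribosomal proteins, rose with log2 fold changes of 1.61 and 1.10 (limma adjusted p = 0.000326 and 0.000913). Reads of cytosolic ribosomal protein genes can also come from their many processed pseudogenes. The difference between the cytosolic and the mitochondrial lists was not tested.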

How the data were processed

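Oocyte RNA of 4 Rbpms2 knockout and 4 wild-type mouse libraries was analysed from 1 deposited table of FPKM per gene. The authors made these FPKM values from amplified mRNA, with cutadapt, HISAT2 and HTSeq on GRCm38 per the submitters' processing notes. A statement on software versions, annotation release and use of strand was not given in the sources used here. Symbols, exon lengths and GC content came from GENCODE release M21 and matched 21851 of 21959 genes.

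The 11235 genes that reached 1 FPKM in 4 or more libraries were tested on log2(FPKM + 1), a scale that understates changes of low genes, with limma 3.58.1 in R 4.3.3 (eBayes trend, genotype as the only term, Benjamini-Hochberg adjusted p under 0.05). Folds without log2 divide one mean FPKM by the other. FPKM multiplied by exon length came in steps of 1 read (97.3% to 97.5% of values whole within 0.02 reads), which gave the depths and an alternative limma-voom fit. The labels name no molecular identifiers, so amplified reads are not independent molecules and depth reflects counting error only. Every 2 libraries of a genotype differed by more than sampling noise (chi-square at least 33.6 per degree of freedom).

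The members and lists were chosen with earlier results of these data known. Genes named with their values were the Mrps18 family, Mrps30 and Mrps36, up to 5 largest rises and falls and the 3 highest and lowest members of each subunit, members below the filter, and up to 3 called genes per list; the other called members are listed by name. No p was computed for a list. The alternatives changed the pseudocount to 0.1 or 5, dropped the filter or set it at 5 FPKM, scaled by equal totals, median of ratios or quantiles, and added a block for the replicate number, a GC correction (loess, span 0.5, per library) or both. Others left out each library in turn or the 3 somatic-rich libraries together. The steps were tested on simulated data. Tables and figures used Python 3.11.15, pandas 2.3.3 and matplotlib 3.10.9.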

Additional observations from a re-analysis of the deposited data

Results flagged for a closer look

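Of 106 groups of 4 libraries examined, 5 held a library far from the other 3, and chance gives about 1 in 20. Mrps9 had 9.31 FPKM in wild-type replicate 3, against 16.0 to 17.1 FPKM in the other wild-type libraries. The Mrpl sum was 2514 FPKM in wild-type replicate 3, against 2713 to 2733 FPKM in the others. mt-Nd5 had 1803 FPKM in wild-type replicate 3, against 1182 to 1268 FPKM in the others. Lars2 had 166 FPKM in knockout replicate 3, against 53.3 to 65.6 FPKM in the other knockout libraries. Mterf1b had 1.3 FPKM in knockout replicate 4 and was listed at 0 in the other knockout libraries. Wild-type replicate 3 and knockout replicate 3, which hold 4 of the 5 values, were among the libraries rich in granulosa and stroma markers, and the part of those cells in these values was not tested.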

How the results depend on the processing

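Under the 20 alternatives, the counts of members called ranged from 7 to 14 higher and 16 to 24 lower. Of the 34 calls, 5 higher and 13 lower were kept under all 20. Leaving out single libraries gave 7 to 13 members higher and 17 to 24 lower, 1 to 5 Mrps genes higher, and a median Mrps log2 fold change of -0.27 to -0.07, the lowest without knockout replicate 2. That median was 0.01 under median-of-ratios scaling and -0.28 without the 3 libraries rich in somatic markers, and the Mrpl median was 0.07 under median-of-ratios scaling, where the median of all genes was 0.00. The difference in the ratio of summed Mrps to Mrpl FPKM, -0.091, was -0.121 after the GC correction, -0.111 without the 3 somatic-rich libraries, -0.065 by structure and 0.05 with medians in place of sums. After the GC correction, alone or with the replicate block, the log2 fold change of 3 called members changed sign, among them Mrps9 (-0.09) and Mrpl54 (0.12). Of the other genes of mitochondrial gene expression, 6 were higher after the GC correction in place of 10, and 10 to 19 were lower without single libraries. The cause of these shifts was not tested.

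The replicate number as a block gave 11 members higher and 23 lower, and 13 and 18 together with the GC correction. The labels do not say that the numbers pair the libraries, and the values leave it undecided. The deviations of same-numbered libraries correlated at 0.185, 0.016, 0.361 and -0.053, and those of differently numbered libraries at -0.341 to 0.330. The value of 0.361, for knockout and wild-type replicate 3, was the highest of all pairs. Mrps34 had the fewest reads of a tested member (33 in a library), and its exons overlap those of Mapk8ip3 and Nme3. Whether depth or the assignment of shared reads gives the low number of Mrps34 or the 0 of Mrpl53 was not tested.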
